A study of Mus musculus with 29 samples.

Results

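The colon reclaims salt and water through a small set of membrane transporters, and 10 genes of this kind were followed here through dextran sodium sulfate (DSS) colitis in mice. The genes were taken by name: Slc26a3, Slc9a3 and Scnn1a, Aqp8 and Aqp4, Car1 and Car4, Best2 and Cftr, and Clca4b. Each was read from the array probe set whose single annotated gene symbol is that gene, and every one of the 10 has exactly 1 such probe set. They are 10 of 19938 genes with a probe set of this kind. Expression was measured in colon RNA of 29 female mice, 1 array per mouse. The labels give the strain as C57BL6J, which the methods write without the J, and an age of 6 weeks, which by the methods is the age when the experiment began and not that at tissue collection, for which the mice were matched. Control mice (n = 5) received no DSS. Acute colitis mice (n = 4) received DSS for 7 days and were studied without recovery, while 1-cycle mice (n = 5) had the 7 days of DSS and 2 weeks of recovery. The 2-cycle and 3-cycle mice (n = 5 each) went through that sequence 2 or 3 times, and the recovery mice (n = 5) had 3 more weeks after 2 cycles. By the methods, the DSS percentage was higher in the later cycles than in the initial cycle. Where these 3 groups are set against acute or 1-cycle mice, repeated cycles and the higher percentage therefore cannot be told apart. The RNA came from the part of the distal colon with the most infiltration, a whole piece of wall that holds epithelium, muscle and immune cells. Fewer cells of a type and less RNA per cell therefore cannot be told apart.

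Absorption in the colon starts with sodium. Slc9a3 (NHE3) exchanges sodium for protons at the surface of absorptive cells and works beside Slc26a3 (DRA), which takes up chloride in exchange for bicarbonate. Carbonic anhydrases, Car1 inside the cell and Car4 on its membrane, supply the bicarbonate and protons that these exchangers use. Scnn1a is the alpha subunit of the epithelial sodium channel ENaC, the aldosterone-regulated route of sodium uptake that is typical of the distal colon. Secretion runs through the apical chloride channel Cftr and, in goblet cells, the bicarbonate-conducting channel Best2, while Aqp8 and Aqp4 are water channels. Clca4b belongs to the CLCA family, whose members were named as calcium-activated chloride channels and are now regarded as secreted or surface proteins that modulate channels.

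The RefSeq promoter table (build GRCm38.p6) covers 6 of the 10 genes, with 250 bases before and 50 bases from the start of the transcript. The promoters of Slc26a3 and Aqp8 are shown because these genes fell most among the exchangers and the water channels in acute colitis, and that of Clca4b because it went the other way. They lie at chr12:31437969-31438268 (plus strand), chr7:123462044-123462343 (plus strand) and chr3:144932480-144932779 (minus strand). Each is printed 5′ to 3′ along the strand of its gene, and capitals mark matches to the motifs searched on both strands.
Slc26a3: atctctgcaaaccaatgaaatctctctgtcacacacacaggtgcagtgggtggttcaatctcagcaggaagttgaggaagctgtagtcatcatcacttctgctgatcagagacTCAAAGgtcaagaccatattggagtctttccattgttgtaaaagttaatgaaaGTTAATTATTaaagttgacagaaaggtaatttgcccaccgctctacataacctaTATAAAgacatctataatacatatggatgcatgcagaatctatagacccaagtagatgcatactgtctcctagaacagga
Aqp8: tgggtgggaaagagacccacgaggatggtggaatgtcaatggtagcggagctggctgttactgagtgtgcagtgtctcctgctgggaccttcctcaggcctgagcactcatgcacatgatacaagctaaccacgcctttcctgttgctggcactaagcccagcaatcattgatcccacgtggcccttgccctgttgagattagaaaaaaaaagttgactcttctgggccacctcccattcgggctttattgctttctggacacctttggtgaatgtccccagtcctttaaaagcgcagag
Clca4b: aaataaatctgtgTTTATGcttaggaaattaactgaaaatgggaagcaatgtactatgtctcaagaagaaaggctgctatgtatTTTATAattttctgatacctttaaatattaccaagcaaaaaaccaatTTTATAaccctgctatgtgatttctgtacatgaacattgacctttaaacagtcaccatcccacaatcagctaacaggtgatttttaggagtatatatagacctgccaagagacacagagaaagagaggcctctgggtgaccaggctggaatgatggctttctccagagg
Searched were the letters TATAAA of the core promoter element named after them, the letters CATAAA bound by caudal-type factors such as CDX2, the HNF4-type core CAAAGT, the TCF-type core CTTTGA, and the longer consensus of an HNF1-type site. In the whole table these occur in 13.6%, 11.9%, 14.4%, 16% and 0.399% of 32851 promoters. Slc26a3 holds the HNF1-type letters from -84 to -75 and the TATA letters from -30 to -25, counted from the start of the transcript, and the TCF-type letters on the other strand. Clca4b holds the TATA and CDX-type letters on the opposite strand, and none of the 5 motifs is in the Aqp8 window. Of the other 3 promoters, Car4 holds the TATA letters after the start, and those of Slc9a3 and Cftr hold none of the 5. Base composition is graded over the 6 promoters. G or C make up 71.3% of bases in Cftr, 68.7% in Slc9a3, 57.3% in Car4 and 52.0% in Aqp8. The share is 39.3% in Slc26a3 and 37.0% in Clca4b, with a median of 52.7% over the table.

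The values are log2 expression values made by RMA, which removes background, gives every array the same distribution and reduces the probes for a transcript to a single value. Since different probe sets respond differently, levels were compared between mice and never between genes. Array medians lay between 6.03 and 6.14 and correlations between arrays between 0.943 and 0.992, and no array was left out of the main comparisons. Groups were compared with limma over all 35511 probe sets, and a call required that the Benjamini-Hochberg adjusted p was below 0.05 with more than a 2-fold change. A probe set with no gene symbol splits the arrays into 14 with low and 15 with high values. All 5 control and all 5 1-cycle arrays are low, all 3-cycle and recovery arrays are high, and acute colitis (2 low, 2 high) and 2 cycles (2 low, 3 high) hold both. What this split stands for is not stated in the sources used here. Changes against control were therefore also fitted with the split as a covariate and, for acute colitis and 2 cycles, among the low arrays only. Acute colitis and 2 cycles alone set the size of the covariate's effect. For 3 cycles and recovery against control, and for 3 cycles against 1 cycle, the split and the treatment cannot be told apart. Recovery against 2 cycles and 1 cycle against acute colitis also differ in their share of high arrays. Arrays are named by the letter and digit of their label.

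In acute colitis 5 of the 10 genes fell and 1 rose. Aqp8, Scnn1a, Best2, Slc26a3 and Car4 fell 2.34-fold to 3.76-fold and Clca4b rose 23.2-fold, while 1.4% of all probe sets were called lower and 1.38% higher. Cftr was lower by adjusted p but not by 2-fold, which makes 6 members lower by adjusted p alone against 11.6% of probe sets. Slc9a3, Car1 and Aqp4 were not called. The median log2 fold change over the 10 was -1.03, and 0.037 over all probe sets. Statements below on arrays outside the control range describe single genes, without the share of all probe sets that do the same.

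In the groups studied after DSS had been withdrawn, 9 of the 10 genes were not called in limma's comparison with control, while Clca4b was higher in every group. Lower calls among the members numbered 0 of 10 after 1 cycle, 2 cycles, 3 cycles and recovery, where 0.186%, 0.124%, 0.597% and 0.563% of probe sets were lower. At an unadjusted p under 0.05, 4, 4, 5 and 4 members were lower in these groups, beside 11.8%, 10.6%, 15.8% and 15% of all probe sets. By adjusted p alone the counts were 1 (Scnn1a), 0, 3 (Slc26a3, Car4 and Scnn1a) and 2 (Slc26a3 and Car4), beside 3.54%, 2.51%, 9.26% and 6.61% of all probe sets. Higher calls numbered 1 in each group, Clca4b, beside 0.87%, 0.907%, 1.02% and 1.08%. Median log2 fold changes of the 10 were -0.34, -0.42, -0.46 and -0.51 in the 4 groups. These 5 comparisons share the control mice. When the 6 group means of a gene were put in order, neighbours passed by adjusted p for Scnn1a, between acute colitis and 1 cycle, and for Clca4b, between control and recovery, and no other neighbours did.

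**Figure D1:**
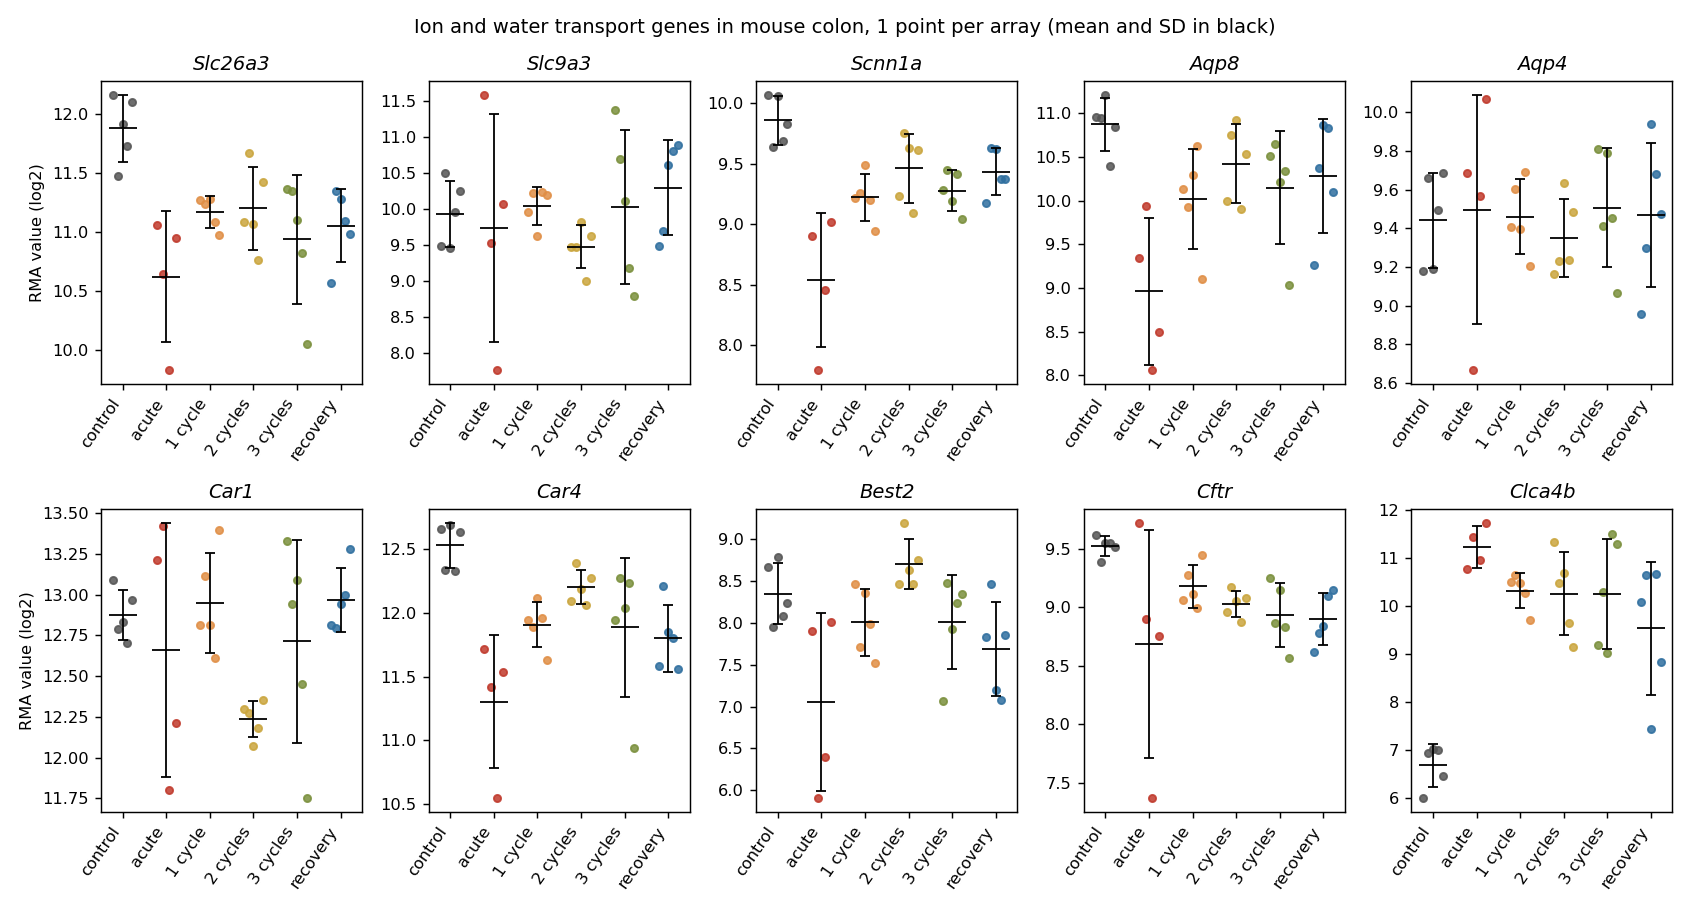
Log2 RMA value (vertical axis) of each of the 10 genes in control mice and in the 5 DSS groups, 1 point per array, with the group mean and SD in black. Slc26a3, Aqp8, Car4 and Scnn1a lie below the lowest control in all 4 acute arrays. Clca4b lies above the highest control in every DSS array, and Slc9a3 and Car1 spread to both sides of the controls in acute colitis. These positions are a description, given without the share of all probe sets that separate in the same way. Vertical scales differ between panels.

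Slc26a3 carries chloride absorption, and its loss causes congenital chloride diarrhoea in people. The control values were 12.16, 11.48, 11.91, 11.73 and 12.10 on the log2 scale. In acute colitis they were 11.06, 10.65, 9.83 and 10.95, all 4 below the lowest control. The log2 fold change was -1.25 (SE 0.24, adjusted p = 0.000389), a 2.38-fold fall. Group means stayed below control afterwards, at 11.17 ± 0.14 (SD) after 1 cycle, 11.20 ± 0.35 after 2, 10.94 ± 0.54 after 3 and 11.06 ± 0.31 after recovery (n = 5 each). The log2 fold changes from control were -0.71 (SE 0.23, adjusted p = 0.0622), -0.68 (SE 0.23, adjusted p = 0.0856), -0.94 (SE 0.23, adjusted p = 0.00604) and -0.82 (SE 0.23, adjusted p = 0.0198). Every array but 1 in these 4 groups lay below the lowest control. Neighbouring DSS groups in the order of means did not pass the test against each other. Without acute array B4 the acute change was -0.99 (adjusted p = 0.0037), just under 2-fold. Without control array A2, or 3-cycle array F1 or F3, the change after 3 cycles was called, each time at -1.04.

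Slc9a3, the sodium-proton exchanger that works in tandem with Slc26a3, showed no common direction. Controls read 9.49, 10.50, 9.46, 9.96 and 10.25. Acute arrays read 11.58, 9.53, 7.76 and 10.07, so 1 mouse lay above every other of the 29 and 1 below. The difference was -0.20 with a 95% interval from -1.25 to 0.86 (adjusted p = 0.83), too wide to bound the change at 2-fold. After 3 cycles the spread was again wide, 11.37, 10.69, 10.10, 9.17 and 8.79, with 2 arrays above and 2 below the control range. By contrast the 1-cycle arrays kept to a range of 9.62 to 10.23. Differences from control were 0.11 (SE 0.48) after 1 cycle, -0.45 (SE 0.48) after 2, 0.09 (SE 0.48) after 3 and 0.36 (SE 0.48) after recovery, none of which passed the test. The SD in acute colitis, 1.58, compares with 0.46 in controls.

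Scnn1a, the pore subunit that every ENaC channel needs, had the smallest adjusted p of the members that fell. Control arrays read 10.07, 9.64, 10.06, 9.69 and 9.83. Acute arrays read 8.90, 7.79, 8.45 and 9.02, with no overlap. The log2 fold change was -1.32 (SE 0.18, adjusted p = 6.49e-06), a 2.49-fold fall, and it was called under every alternative tried, from -1.51 to -1.07. Values in the other DSS groups were 8.94 to 9.49 after 1 cycle, 9.09 to 9.75 after 2, 9.04 to 9.45 after 3 and 9.17 to 9.63 after recovery. Against control the log2 fold changes were -0.64 (SE 0.17, adjusted p = 0.0211), -0.39 (SE 0.17, adjusted p = 0.194), -0.58 (SE 0.17, adjusted p = 0.0186) and -0.43 (SE 0.17, adjusted p = 0.0997). Scnn1a was also the only member whose step from acute colitis to 1 cycle passed by adjusted p, 0.68 (SE 0.18, adjusted p = 0.0254), short of 2-fold, where 2.67% of probe sets were higher by adjusted p.

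Of the water channels, Aqp8 had the deepest fall among the 10 and Aqp4 hardly moved. Aqp8 sits in the surface epithelium of the colon. Its control values were 10.96, 10.95, 11.21, 10.39 and 10.85, and those of acute colitis 9.35, 9.94, 8.06 and 8.50. The ranges did not overlap, and the log2 fold change was -1.91 (SE 0.37, adjusted p = 0.0004), a 3.76-fold fall. It was called under every alternative, from -2.24 to -1.23. Later means were 10.02 ± 0.57 (SD), 10.42 ± 0.45, 10.15 ± 0.65 and 10.29 ± 0.65 after 1, 2 and 3 cycles and recovery (n = 5 each). Those 4 differences from control, -0.85, -0.45, -0.72 and -0.59, did not pass (adjusted p = 0.16, 0.543, 0.154 and 0.292). In 3 of these groups a single array lay well under the others, K3 at 9.11, G3 at 9.03 and M1 at 9.27.

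Aqp4, the other water channel, averaged 9.44 ± 0.25 (SD, n = 5) in controls and 9.50 ± 0.59 (n = 4) in acute colitis. Its largest difference from control in any group was -0.09 after 2 cycles, and the 95% interval in acute colitis ran from -0.38 to 0.49. That interval leaves no room for a 2-fold change in either direction under this model, although acute array B3 at 8.67 lay below all controls and C3 at 10.07 above them.

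The 2 carbonic anhydrases parted. Car4, the membrane-anchored enzyme of the colonic surface, had control values of 12.66, 12.34, 12.69, 12.33 and 12.64. Acute values were 11.72, 11.42, 10.55 and 11.53, all lower. The log2 fold change was -1.23 (SE 0.21, adjusted p = 0.000124), a 2.34-fold fall. Changes of -0.64 (SE 0.20, adjusted p = 0.0281) after 3 cycles and -0.73 (SE 0.20, adjusted p = 0.019) after recovery passed by adjusted p but not by 2-fold, and those after 1 and 2 cycles, -0.62 (SE 0.20, adjusted p = 0.0629) and -0.33 (SE 0.20, adjusted p = 0.412), did not. All 5 recovery arrays, 11.56 to 12.21, lay below the lowest control. The acute call was lost without array B4, at -0.97 (adjusted p = 0.00107), and among the low arrays, at -0.96 (adjusted p = 0.00222), each time by fold and not by p.

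Car1, the abundant cytosolic enzyme of the colonocyte, was not called in any comparison. Acute values were 13.21, 13.42, 11.80 and 12.21, with 2 arrays above the highest control and 2 below the lowest, against 13.09, 12.79, 12.83, 12.70 and 12.97 in controls. The acute difference was -0.21 (SE 0.27, adjusted p = 0.619). The 2-cycle arrays were the ones that sat together, 12.30, 12.27, 12.07, 12.18 and 12.36, all below the lowest control, at -0.64 (SE 0.25, adjusted p = 0.148). Recovery mice read 12.80 to 13.28 and exceeded the 2-cycle mice by 0.73 (SE 0.25, adjusted p = 0.354).

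Both secretory channels were lower in acute colitis by adjusted p, Best2 by more than 2-fold and Cftr by less. Best2 controls read 8.67, 7.96, 8.78, 8.08 and 8.24, and acute arrays 7.91, 5.91, 6.40 and 8.01, of which C3 fell inside the control range. The log2 fold change was -1.29 (SE 0.36, adjusted p = 0.00959), a 2.44-fold fall. The call was lost without B3, at -0.91 (adjusted p = 0.065), and without B4, at -1.07 (adjusted p = 0.056). It was also lost, at adjusted p from 0.0559 to 0.0684, with array weights, among low arrays and in a fit of these 2 groups alone. Apart from Clca4b, Best2 was the only member whose 2-cycle mean exceeded the control mean, 8.70 ± 0.30 (SD) against 8.35 ± 0.36 (n = 5 each), and recovery mice lay -1.02 (SE 0.34) from that 2-cycle mean, which did not pass (adjusted p = 0.329).

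Cftr varied least among the controls, 9.62, 9.39, 9.55, 9.55 and 9.52, and much more in acute colitis, 9.73, 8.90, 7.37 and 8.76. B2 lay above every control and the other 3 acute arrays below. The difference was -0.84 (SE 0.25, adjusted p = 0.0155), under 2-fold, and without B2 it was -1.18 (adjusted p = 0.000172), which is a call. From the acute mean B2 deviated by 1.04 and B4 by -1.32. Leaving out B4 instead therefore makes the fall smaller, by more than leaving out B2 makes it larger. The SE rests on a spread pooled over all groups, while the SD was 0.98 in acute colitis and 0.086 in controls. In the later groups 19 of 20 arrays lay below the lowest control. The log2 fold changes there were -0.35 (SE 0.24, adjusted p = 0.483), -0.50 (SE 0.24, adjusted p = 0.25), -0.59 (SE 0.24, adjusted p = 0.0808) and -0.63 (SE 0.24, adjusted p = 0.0799).

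Clca4b rose in every DSS group and had the largest change of the 10 genes. Control values were 6.01, 6.94, 7.04, 7.01 and 6.46, and acute values 10.77, 11.44, 10.97 and 11.74, a difference of 4.53 (SE 0.55, adjusted p = 1.55e-06). After 1 cycle the arrays read 10.49, 10.65, 10.48, 10.27 and 9.71. After 2 cycles they read 11.32, 10.48, 10.69, 9.65 and 9.16 and after 3 cycles 9.19, 10.28, 9.03, 11.49 and 11.29. All of these lie more than 2 log2 units above the control mean. Recovery values were 10.09, 10.64, 7.45, 10.67 and 8.84, with M5 the nearest to the controls. Fold changes were 12.4, 11.8, 11.8 and 7.2 in these 4 groups, all called in limma's fit. With the array split as a covariate the recovery difference was 3.32 and its adjusted p 0.0528, above the threshold. The difference between recovery and 2 cycles, -0.72, did not pass (adjusted p = 0.742).

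Clca4b has a close neighbour, Clca4a, and a probe set shared by both genes, so the 3 probe sets were set side by side. The Clca4a probe set changed by 0.61 to 0.70 in the 5 DSS groups, past the adjusted p threshold in each and short of 2-fold. The shared probe set changed by 1.05 in acute colitis, a call, and by 0.74 to 0.85 in the others. Near-identical sequence can let probes of 1 gene read the other, which these values cannot separate.

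**Figure D2:**
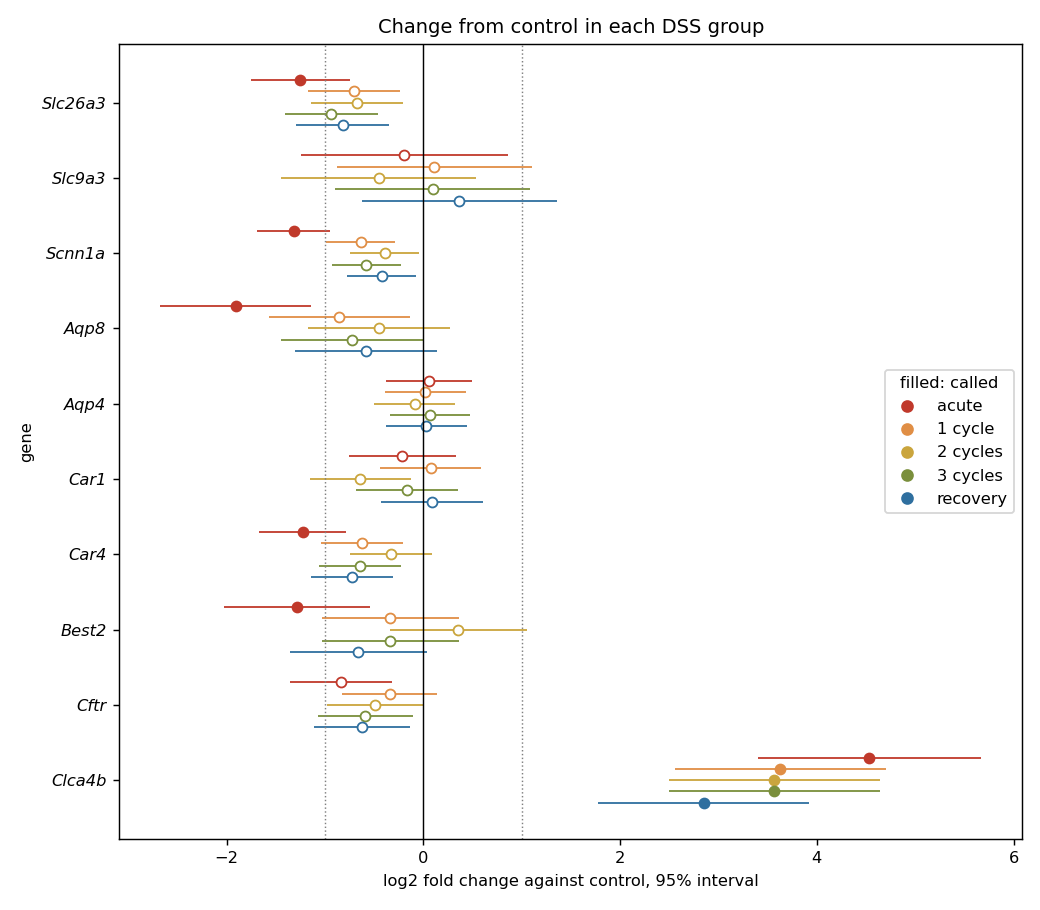
Log2 fold change from control (horizontal axis) with 95% interval for each of the 10 genes in the 5 DSS groups, filled where adjusted p was under 0.05 and the fold above 2 (dotted lines). In acute colitis 5 genes are filled on the left, the open points of the later groups lie between them and 0 for Slc26a3, Scnn1a, Aqp8 and Car4, and Clca4b is filled in all 5 groups.

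Acute colitis was next set against the mean of 1, 2 and 3 cycles, the chronic groups. Aqp8 (-1.24, SE 0.31, adjusted p = 0.00843) and Best2 (-1.18, SE 0.30, adjusted p = 0.00915) were lower in acute colitis, 2 of 10 members beside 0.631% of probe sets lower and 0.282% higher. Scnn1a (-0.78, SE 0.15, adjusted p = 0.000881) and Car4 (-0.70, SE 0.18, adjusted p = 0.01) passed by adjusted p but not by 2-fold, so that 4 of 10 were lower by adjusted p alone, beside 5.66% of probe sets. Clca4b was 0.95 higher on average in acute colitis and did not pass (adjusted p = 0.217). The Aqp8 call was lost without B4 (-0.94, adjusted p = 0.081) or C3 (-1.08, 0.0568), and the Best2 call without B3 (-0.80, 0.0976) or B4 (-0.96, 0.0709).

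In 3 further comparisons limma called none of the 10 genes. For 1 cycle against acute colitis the backgrounds were 0.197% lower and 0.498% higher, for 3 cycles against 1 cycle 0.0479% and 0.0732%, and for recovery against 2 cycles 0.00845% and 0.152%. At an unadjusted p under 0.05, 5 members were higher after 1 cycle than in acute colitis and 0 lower, beside 7.66% and 11.5% of all probe sets. Between 3 cycles and 1 cycle the count was 0 lower and 0 higher, beside 6.82% and 11.6%. Between recovery and 2 cycles 1 was lower (Best2) and 1 higher (Car1), beside 4% and 4.7%. Recovery against 2 cycles gave 0.82 (SE 0.48, adjusted p = 0.66) for Slc9a3, with the 3 highest recovery arrays above every 2-cycle array.

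A wider set of transport genes, 108 measured of 115 listed beside the members, was read in the same fits. In acute colitis 7 of them fell and 3 rose, beside 1.4% and 1.38% of all probe sets, and their median log2 fold change was -0.08. The counts were 1 lower and 0 higher after 1 cycle (all probe sets 0.186% and 0.87%), 1 and 0 after 2 cycles (0.124% and 0.907%), 1 and 1 after 3 cycles (0.597% and 1.02%), and 1 and 3 after recovery (0.563% and 1.08%). Fxyd4 (CHIF), a regulator of the sodium pump induced by corticosteroids, was the gene lower in all 5 groups. Its control values were 8.79, 7.08, 8.30, 7.80 and 8.38 and its acute values 5.94, 6.02, 6.58 and 5.97. The log2 fold changes were -1.95 (SE 0.25) in acute colitis, -1.78, -1.48 and -1.98 after 1, 2 and 3 cycles, and -1.76 after recovery. Among low arrays only, the 2-cycle change was -1.20 (adjusted p = 0.104). Every DSS array lay below the lowest control, A2.

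Of 14 genes of sodium and proton pumps, Fxyd4 and Atp12a fell and Fxyd5 rose in acute colitis. Atp12a, the non-gastric proton-potassium pump of the distal colon, fell by 2.77 on the log2 scale in acute colitis (SE 0.74, adjusted p = 0.00688), from 10.56, 8.32, 9.96, 9.04 and 9.62 in controls to 5.14, 6.52, 8.88 and 6.40. B4 was within the control range. In the later groups it did not pass, with -0.13 after 2 cycles and -1.47 after 1. Fxyd5, another pump regulator, rose in acute colitis (1.14, SE 0.23, adjusted p = 0.000622) and after 3 cycles (1.03, SE 0.22, adjusted p = 0.00236). Its acute change was 0.85 without B3 and 1.05 (adjusted p = 0.0836) among low arrays, and the 3-cycle change was under 2-fold without A5, L1, G2 or G3 (0.92 to 0.99) and 0.88 (adjusted p = 0.208) with the array split as a covariate.

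Among exchangers, the sulfate transporter Slc26a2 changed by -1.07 (SE 0.20, adjusted p = 0.000269) in acute colitis, and 2 of the 14 measured exchangers were called with Slc26a3 included. Without control A1 or acute B4 the Slc26a2 change was -0.96 or -0.83, and it was -0.99 with array weights, -0.84 with the array split as a covariate and -0.65 (adjusted p = 0.0359) among low arrays, none of them a call. Of the carbonic anhydrases, the cytosolic Car2 fell (-1.13, SE 0.22, adjusted p = 0.000491) with Car4, and the membrane-bound Car12 rose in acute colitis (1.17, SE 0.38, adjusted p = 0.0272) and in recovery (1.20, SE 0.36, adjusted p = 0.0302). Car2 was not called without B4, at -0.91, and was -0.84 with the array split as a covariate and -0.76 (adjusted p = 0.0429) among low arrays. Leaving out any of A1, A5, B2, B3 or C3 took the acute Car12 call away (adjusted p up to 0.123), and A1, A5, M1, M5, N2 or N3 the recovery call (up to 0.111). In a fit of the compared groups alone the acute adjusted p of Car12 was 0.133, and with the array split as a covariate its recovery change was 1.71 (adjusted p = 0.148). None of the other ENaC subunits and regulators was called: the mineralocorticoid receptor gene Nr3c2 was -0.97 (SE 0.13, adjusted p = 5.92e-06) in acute colitis and Scnn1g -0.96 (SE 0.30, adjusted p = 0.0353) in recovery.

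Ano1, the calcium-activated chloride channel of epithelium and pacemaker cells, fell 3.52-fold in acute colitis, from 10.69, 10.33, 10.63, 10.40 and 10.44 to 8.71, 7.67, 9.13 and 9.21 (log2 fold change -1.82, SE 0.22, adjusted p = 1.67e-06). Clca1, a goblet cell product, fell 3.19-fold (-1.67, SE 0.19, adjusted p = 6.88e-07), opposite to Clca4b. Both were higher after 1 cycle than in acute colitis, by 1.29 and 1.54, and neither was called against control in the 4 later groups. The Ano1 difference between 1 cycle and acute colitis was 0.95 without B3, and its adjusted p was 0.107 in a fit of those 2 groups alone. Trpv6, an epithelial calcium channel, was not called against control but was lower in acute colitis than in the chronic groups (-1.69, SE 0.42, adjusted p = 0.00804), as were Ano1 (-1.46) and Clca1 (-1.5). Of the guanylate cyclase and cyclic nucleotide signalling genes, Pde5a, a cyclic GMP phosphodiesterase, had -0.71 (SE 0.10, adjusted p = 1.2e-05) in acute colitis, short of 2-fold.

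Slc16a3, the lactate exporter MCT4, rose in acute colitis (1.23, SE 0.17, adjusted p = 8.08e-06). It was the only one called of 6 genes of short-chain fatty acid and monocarboxylate transport. Slc5a8 averaged 11.67 in controls and 10.67 in acute colitis, and Slc16a1 10.31 and 9.85, both short of 2-fold. Of 12 potassium channel genes, the smooth muscle subunit Kcnmb1 fell (-1.11, SE 0.13, adjusted p = 1.16e-06), and was -0.97 (adjusted p = 0.00679) among low arrays, under 2-fold. In recovery the water and glycerol channel Aqp3 was 1.00 higher (adjusted p = 0.0103) and Clca2 1.24 higher (adjusted p = 0.00456). Aqp3 values there were 7.99, 7.47, 5.81, 6.54 and 7.43 against 5.91 to 6.25 in controls, and Clca2 values 6.49, 6.10, 4.72, 5.26 and 6.38 against 4.24 to 4.80. In each gene M5 did not exceed the controls and the other 4 arrays did. Squamous keratin Krt5 read 12.15, 11.80, 5.52, 10.19 and 11.90 in the same mice, 5.48 to 5.91 in controls and 10.91 in 3-cycle array G3, where Aqp3 was 6.85 and Clca2 6.07. Of 12 squamous genes 10 were called higher in recovery, beside 1.08% of all probe sets. The mean of the 12 ran from 5.52 to 9.73 there and from 5.38 to 5.59 in controls. The part of squamous tissue in these 2 results was not tested. The Aqp3 call was lost without A1, A5, L2, M1, M3 or N3 (down to 0.77, adjusted p = 0.045), in a fit of the compared groups alone (adjusted p = 0.0705) and with array weights (0.95). With the array split as a covariate Aqp3 and Clca2 were 0.90 and 1.11 (adjusted p = 0.332 and 0.259).

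**Figure D3:**
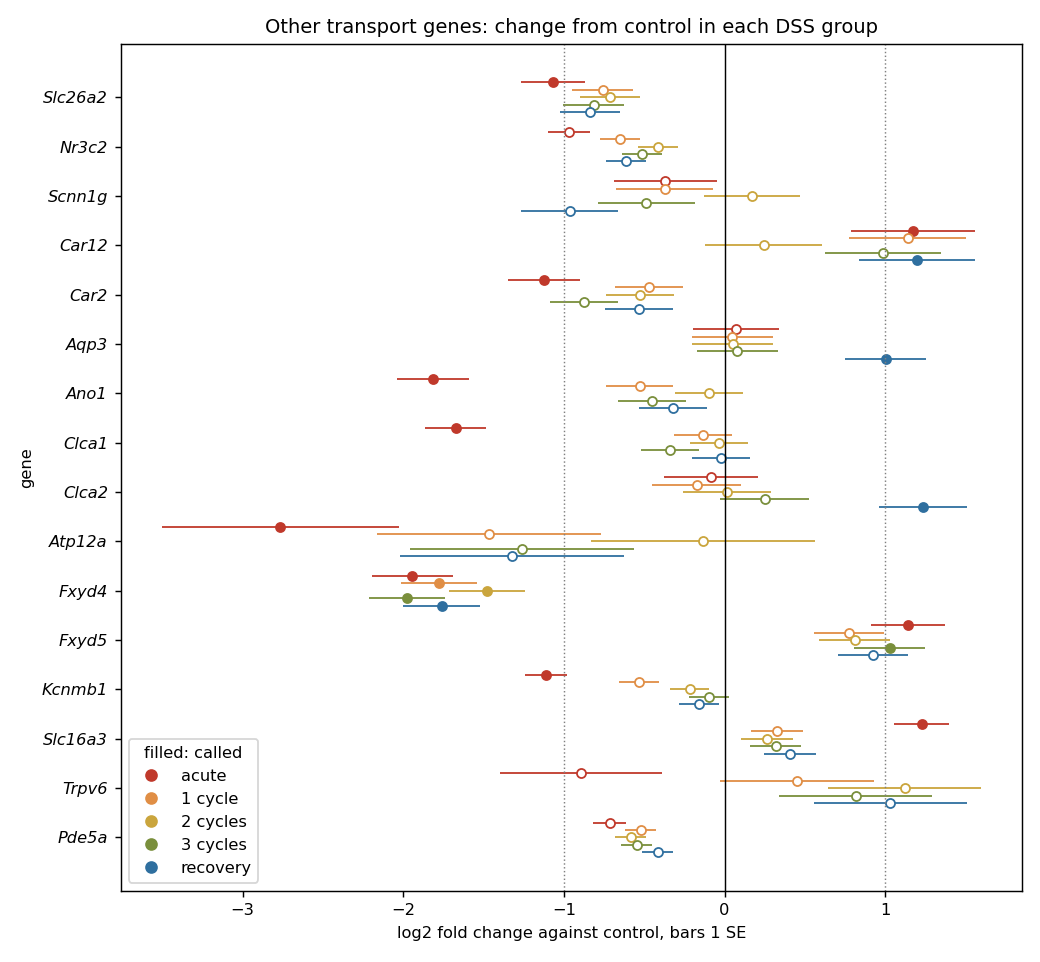
Log2 fold change from control (horizontal axis, bars 1 SE) of the other transport genes named, in the 5 DSS groups, filled where called. Fxyd4 is filled in all 5 groups, Ano1, Clca1, Atp12a and Kcnmb1 in acute colitis alone, and Aqp3 and Clca2 in recovery alone.

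Marker genes of the cell types a piece of colon wall can hold were read in the same fits. The mean of 15 pan-epithelial genes stayed level, 10.76 to 10.85 in controls and 10.71 to 10.98 in acute colitis, with 0 of 15 called in any DSS group. Krt8, a keratin of simple epithelium, read 13.21 to 13.31 in controls and 13.22 to 13.38 in acute colitis. Of 16 absorptive colonocyte genes, 3 were called lower in acute colitis (Slc37a2, Sult1a1 and Mep1a) and 0 higher, beside 1.4% and 1.38% of all probe sets. Their list mean was 10.33 to 10.57 in controls and 9.24 to 10.73 in acute arrays. Of 9 goblet genes, Clca1 was lower and Retnlb higher.

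Smooth muscle and position markers moved with acute colitis as well. All 10 smooth muscle genes were lower by adjusted p, beside 11.6% of all probe sets, and 8 by more than 2-fold, beside 1.4%. Their list mean was 10.43 to 10.83 in controls, 8.76 to 9.73 in acute colitis and 10.18 to 10.42 after 1 cycle. Posterior Hox genes mark the distal gut. The mean of 8 was 7.70 to 7.94 in controls, 6.34 to 7.32 in acute colitis and 6.90 to 7.28 after recovery. In acute colitis 4 of 8 were called lower, beside 1.4% of all probe sets. Their log2 fold changes were -2.31 for Hoxb13, -1.95 for Hoxd13, -1.35 for Hoxd11 and -1.25 for Hoxd10. Of the 8, Hoxa11 alone had a higher mean in acute colitis (6.20) than in controls (5.94). The 4 genes called lower also averaged below control after 1, 2 and 3 cycles and in recovery. Hoxd11 averaged 6.83, 7.12, 6.86 and 6.81 in these groups, against 7.85 in controls. Hoxa11 was above its control mean in all of them, and Hoxa10 after 1 cycle (7.68 against 7.65). Leukocyte genes rose, 9 of 10 called in acute colitis and in recovery and 10 of 10 in the chronic groups. Of all probe sets, 1.38% were higher in acute colitis, 1.08% in recovery, and 0.87%, 0.907% and 1.02% after 1, 2 and 3 cycles. The part of muscle content, gut position or infiltrate in the changes of the 10 transport genes was not tested.

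**Figure D4:**
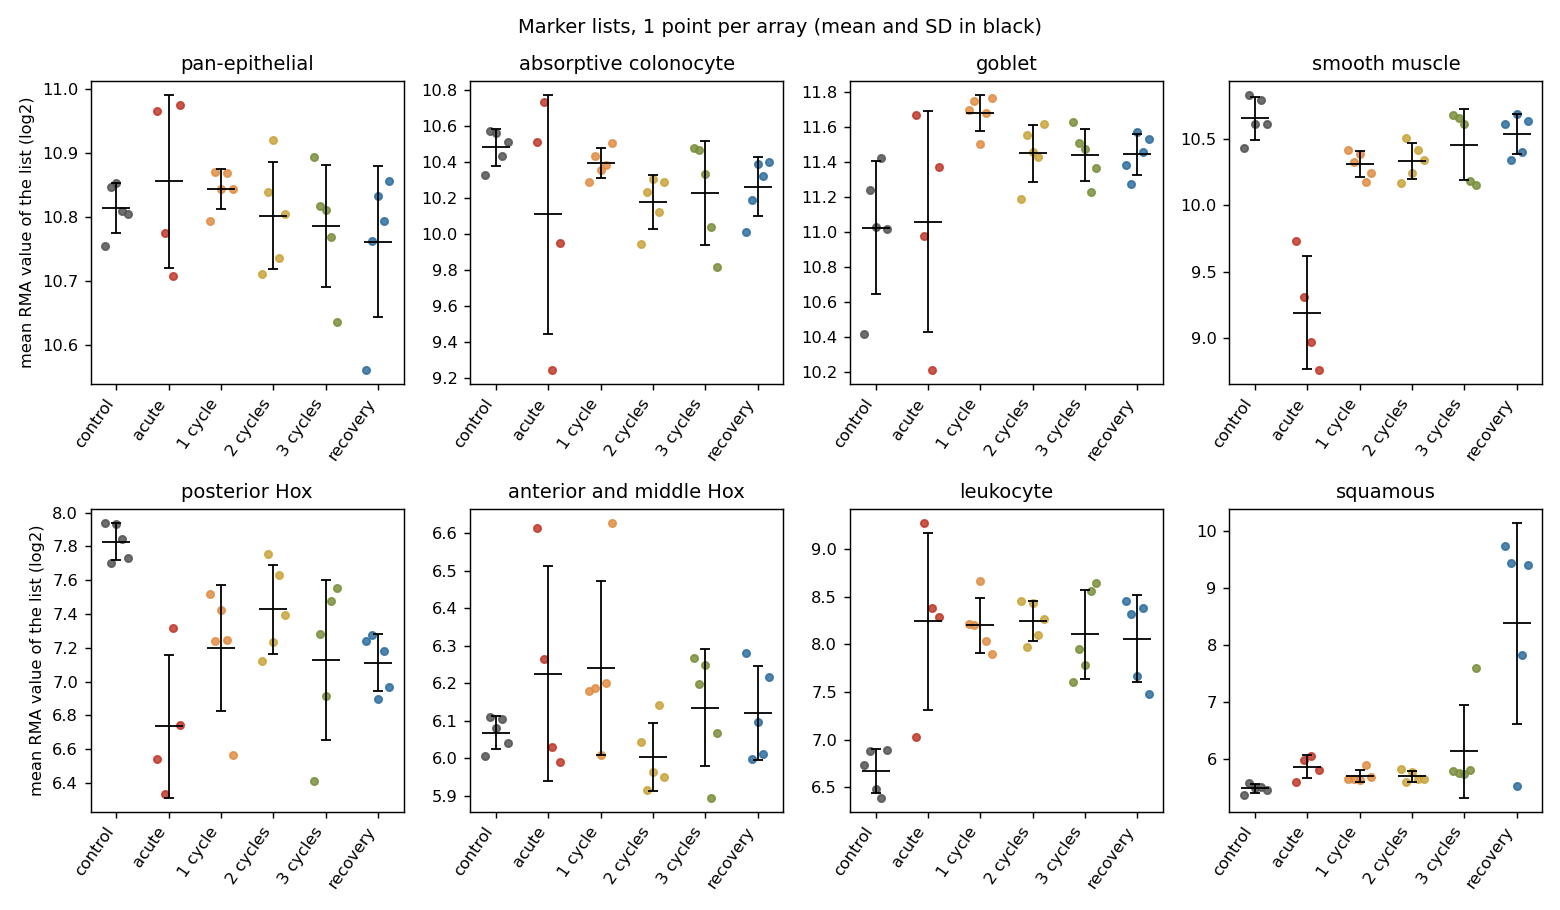
Mean log2 RMA value of 8 marker lists (vertical axis), 1 point per array, by group, with mean and SD in black. The pan-epithelial mean stays between 10.56 and 10.98 in all 29 arrays, the smooth muscle mean is lowest in the 4 acute arrays, the posterior Hox mean is highest on average in controls, and the squamous mean is high in 4 recovery arrays and in G3. Vertical scales differ between panels.

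Differences between mice of the same group were then compared between genes, after the group mean was subtracted from each array. These correlations, over 29 arrays that share RNA, position and normalization, are given as a description. Slc26a3 and Car4 deviated together (r = 0.86, and 0.67 without arrays B4 and G3), as did Slc9a3 and Cftr (r = 0.81, 0.66), Car1 and Cftr (r = 0.76, 0.64) and Scnn1a and Best2 (r = 0.69, 0.75). Car1 and Best2 had r = -0.27 (-0.51 without B4 and G3). B4 and G3 were low in many members at once, in acute colitis Slc26a3, Slc9a3, Aqp8, Car1, Car4 and Cftr and in the 3-cycle group the same 6, Aqp4 and Scnn1a.

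Deviations were also read against Hox genes, whose expression marks position along the gut. Mice with more Hoxb13 than their group had less Slc9a3 (r = -0.69), Car1 (r = -0.70) and Cftr (r = -0.61), and more Best2 (r = 0.53). Without B4 and G3 these r were -0.64, -0.73, -0.59 and 0.69. The Hox genes of 1 list did not run together: over the 8 posterior genes r ran from -0.77 (Hoxd11) to 0.68 (Hoxa11) for Slc9a3, -0.70 (Hoxb13) to 0.27 (Hoxa11) for Car1, -0.66 (Hoxd13) to 0.44 (Hoxa11) for Cftr and -0.01 (Hoxa11) to 0.65 (Hoxa13) for Best2. Over the 11 anterior and middle genes r ran from -0.66 (Hoxc4) to 0.72 (Hoxa3) for Slc9a3 and -0.50 (Hoxc5) to 0.79 (Hoxb5) for Car1. Scnn1a had its highest r with Hoxa13 (r = 0.89, 0.91 without B4 and G3) but 0.03 with Hoxd13, -0.18 with Hoxd11, -0.37 with Hoxd10 and 0.56 with the anterior gene Hoxa3, and 0.24 with the posterior mean. Acute array B3, the lowest in Scnn1a, was also the lowest in Hoxa13 at 6.18. Acute arrays B2 and B3 and 3-cycle array F1 had the lowest Hoxb13 of all 29, at 6.05, 6.57 and 6.36, and were among the 5 highest for Car1, with 13.21, 13.42 and 13.33. Over the 25 arrays without acute colitis r was -0.69, -0.55 and 0.87 for Slc9a3, Car1 and Best2 with Hoxb13, and 0.84 for Scnn1a with Hoxa13. Slc9a3 also followed Cdx2, the gene of an intestinal transcription factor (r = 0.85, 0.77 without B4 and G3). These pairs were taken from 19 Hox genes and Cdx2 read against each member, and named after the values were seen.

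**Figure D5:**
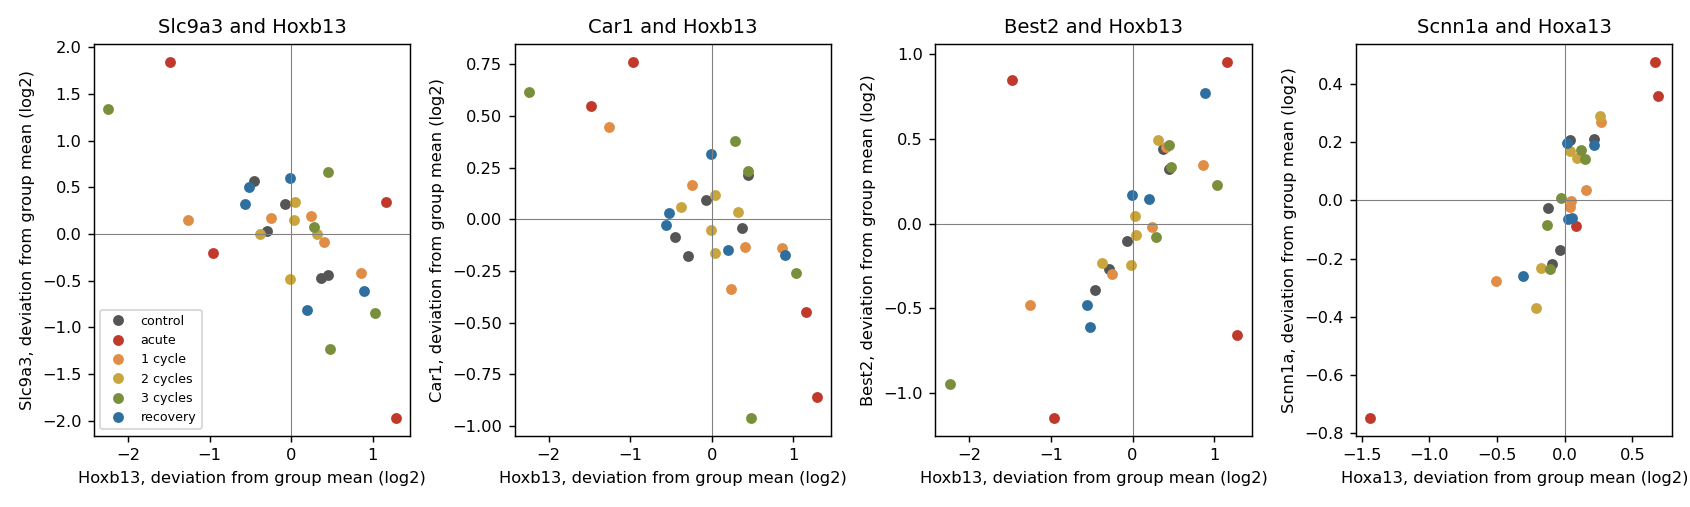
Deviation of each array from its group mean (log2, both axes), coloured by group: Slc9a3, Car1 and Best2 against Hoxb13, and Scnn1a against Hoxa13. Slc9a3 and Car1 slope down with Hoxb13 while Best2 slopes up apart from acute arrays B2 and B4, and Scnn1a rises with Hoxa13 with acute array B3 at the lower left.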

How the data were processed

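Colon RNA was read on Affymetrix Mouse Gene 1.0 ST arrays, 1 per mouse. The log2 values deposited by the authors, 1 per probe set and array, had been made with RMA (R 2.12.2 in the submitters' processing notes), and hold no single-probe signal. Of 35511 probe sets, 21789 have 1 gene symbol, 1621 several and 12101 none in the array annotation. RMA brings arrays to 1 distribution, so values are relative to the other transcripts of an array. 1 more acute array described by the study was not analysed here.

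Groups were taken from the labels. limma 3.58.1 in R 4.3.3 was fitted to all 29 arrays with 1 mean per group, and each comparison's p-values went through the Benjamini-Hochberg procedure with every probe set included. Calls combine an adjusted p below 0.05 with more than a 2-fold change. The p-values test differences between group means against the spread between mice, which limma pools over all groups and moderates across probe sets. The steps were tested on simulated data. Where listed genes had more than 1 probe set, the one with the highest mean was taken. Of other transport genes, up to 4 called with the largest change per list were named, or 2 where none was called, and for each member the 3 genes of highest r. The members and lists were chosen with earlier results of these data known. Alternatives were the compared groups alone, array weights (0.320 to 1.84), a trended and robust prior, 17756 probe sets without dim ones (all 10 members kept), quantile normalization once more, centring on epithelial genes, the label letter as a random block (correlation -0.07), the 2 sets of arrays as a covariate or singly, adjusted p alone, a fold above 1.5, each array left out, and, added after the values were seen, B4 and G3 left out together. Promoters came from a RefSeq table of build GRCm38.p6.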

Additional observations from a re-analysis of the deposited data

Results flagged for a closer look

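In groups of 4 or 5 arrays an array counts as standing apart when its gap to the nearest other array exceeds Dixon's 95% critical share of the group's range. This held in 2 of the 60 groups of member values, and chance gives about 1 in 20. In the 3-cycle group array G3 was the lowest for Aqp8, at 9.03 with the nearest array at 10.21, and for Car4, at 10.94 with the nearest at 11.94. G3 was also the only 3-cycle array with high squamous keratins, Krt5 reading 10.91 there and 5.78, 5.82, 5.75 and 5.85 in the other 4. Without G3 the 3-cycle changes from control were -0.44 for Aqp8 and -0.41 for Car4, against -0.72 and -0.64 with it.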

How the results depend on the processing

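Of 1615 log2 fold changes recomputed under alternatives, 1509 kept their direction and their side of the threshold, 63 lost and 4 gained a call, and 39 changed sign, all of the latter in members that were not called. Slc9a3 in acute colitis was 0.16 with array weights, 0.17 with the array split as a covariate, 0.62 among low arrays and 0.46 without B4 and G3, a setting chosen after the values were seen. Car1 in acute colitis was 0.11, 0.44 and 0.073 under the last 3 of these, and after 3 cycles 0.48 with the split and 0.076 without B4 and G3. Aqp4 was -0.16 with the split and -0.27 among low arrays in acute colitis, -0.36 and -0.40 with the split after 3 cycles and recovery, and -0.011 after 1 cycle with arrays centred on the epithelial list. Cftr after 3 cycles was 0.011 with the split. With each array left out in turn, Slc9a3 ran -0.81 to 0.46 in acute colitis, -0.0096 to 0.25 after 1 cycle and -0.24 to 0.40 after 3; Aqp4 -0.13 to 0.33, -0.045 to 0.085, -0.0099 to 0.18 and, in recovery, -0.087 to 0.16; and Car1 -0.47 to 0.073, -0.039 to 0.16 and -0.32 to 0.076. The cause of these shifts was not tested.

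Each count of members stands here beside the share of all probe sets that passed the same rule. Members lower in acute colitis ran from 2 to 6 with arrays left out in turn (2 without B4, 6 without B2; all probe sets 1.16% to 1.9%), with 3 among low arrays (0.966%) and 2 without B4 and G3 (1.16%). Members lower in acute than in chronic colitis numbered 0 to 2 with arrays left out (0 without B4, 1 without B3 or C3; 0.58% to 0.769%), 1 with array weights (0.583%), 1 without B4 and G3 (0.586%), 4 by adjusted p alone (5.66%) and 4 at a fold above 1.5 (1.75%). By adjusted p alone and at 1.5-fold, 1 and 1 were lower after 1 cycle (3.54% and 0.907%), 3 and 2 after 3 cycles (9.26% and 2.17%), 2 and 2 in recovery (6.61% and 1.8%), and 1 and 1 higher after 1 cycle than in acute colitis (2.67% and 1.28%). With arrays left out, 0 to 1 were lower after 3 cycles (1 without A2, F1 or F3; 0.386% to 0.755%) and 0 to 1 higher after 1 cycle than in acute colitis (1 without B2, B3 or K3; 0.391% to 0.724%). With the split as a covariate 0 members were higher in recovery (0.2%). No paired analysis was possible because each mouse belongs to 1 group and no replicate name recurs between groups. An alternative probe set for each member could not be run, as each has only 1. The number of arrays limits the precision.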

Other observations

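The genes whose pattern over the 29 arrays was most like each member were read out as the 3 of highest Pearson r among genes with 1 symbol, with r, Spearman's rho and the r after group means were subtracted. For Slc26a3 they were Selenbp2 (0.92, 0.82, 0.83), Selenbp1 (0.91, 0.81, 0.82) and Lin7c (0.91, 0.83, 0.81). The Selenbp genes code for selenium-binding proteins of the surface epithelium. Scnn1a was nearest to Acsm3 (0.94, 0.89, 0.85), Sema5a (0.93, 0.85, 0.77) and Acss2 (0.93, 0.83, 0.78). Acsm3 and Acss2 are fatty acid and acetate activating enzymes. Best2 was nearest to Atp2c2 (0.90, 0.80, 0.85), Ace (0.88, 0.87, 0.84) and Adh1 (0.87, 0.86, 0.80), of which Atp2c2 is a calcium pump of the secretory pathway.

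For Aqp8 the nearest genes were Pdlim1 (0.86, 0.81, 0.71), Sema6a (0.86, 0.77, 0.71) and Gsdmc4 (0.86, 0.72, 0.72), and for Car4 Tmem30b (0.90, 0.88, 0.77), Cux1 (0.90, 0.84, 0.77) and Fchsd2 (0.89, 0.87, 0.74). Cftr was nearest to Ugt2b34 (0.94, 0.93, 0.92), Suclg2 (0.92, 0.89, 0.89) and Tgoln1 (0.92, 0.88, 0.91), and Ugt2b34 is one of the absorptive colonocyte genes listed for this work. Slc9a3 was nearest to Ppa2 (0.87, 0.81, 0.92), Elovl6 (0.86, 0.84, 0.87) and Pld1 (0.86, 0.81, 0.89), Car1 to Nceh1 (0.89, 0.85, 0.87), Aldh1a1 (0.88, 0.88, 0.85) and Mettl7b (0.85, 0.82, 0.87) and Aqp4 to Shoc1 (0.83, 0.80, 0.85), Camsap3 (0.81, 0.79, 0.85) and Tmem184a (0.78, 0.71, 0.80). Clca4b was nearest to Zbp1 (0.90, 0.85, 0.60), Arrb2 (0.90, 0.81, 0.62) and Serpina3n (0.90, 0.90, 0.62), among them the nucleic acid sensor Zbp1 and the acute-phase gene Serpina3n. For these 3 genes r was lower within groups than over all arrays. The same held for the genes nearest to Slc26a3, Aqp8, Car4, Scnn1a, Best2 and Cftr. All arrays enter each value, and the 29 points share the normalization.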
